A study of Mus musculus with 6 samples.

Results

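The gene set described here joins the serine synthesis pathway with the amino acid response that the transcription factor ATF4 drives. It was given as a list of 35 gene symbols, and each gene was read from the probe set with the highest mean log2 intensity over all 6 arrays, matched by the symbol of the array annotation or its current alias. A probe set is a group of short array probes for 1 transcript, and intensity is the array's model value for it after the authors' normalization. Of the 35 genes, 34 had a probe set assigned to them alone, out of 18193 genes with such a probe set, and Pycr1 had none. The 34 genes had 77 probe sets in all. The cells were Wnt1-YL, a mammary tumor line established from 1 invasive carcinoma that arose in an FVB/n mouse transgenic for MMTV-Wnt1, in which a mouse mammary tumor virus promoter drives the Wnt1 transgene in mammary epithelium. Both groups carried this transgene, a pLKO lentiviral shRNA vector and puromycin selection, and were cultured with serum, insulin and EGF. The control group, shLuc, received an shRNA against luciferase, and the shSca-1 group received an shRNA against Sca-1, the surface protein encoded by Ly6a. Each group had 3 arrays, labelled as biological replicates, so the results describe cultures of 1 tumor line, and any animal-to-animal variation was not sampled.

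Serine is made from a glycolytic intermediate in 3 steps, by PHGDH, PSAT1 and PSPH. SHMT enzymes then pass a carbon from serine to folate, and MTHFD enzymes carry that carbon on for purine and thymidylate synthesis. When amino acids run short or the endoplasmic reticulum is stressed, kinases phosphorylate eIF2, general translation slows and ATF4 protein is made. ATF4, often paired with a C/EBP protein, then raises genes for amino acid synthesis and uptake, for tRNA synthetases and for stress regulators such as CHOP. Because ATF4 is controlled largely at translation, its mRNA level is no measure of its protein level.

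The short DNA element that ATF4 and C/EBP dimers bind has a core often written TGATGNAA, in which N is any base. This core, of 8 bases, was searched on both strands of RefSeq promoter windows of 300 bases on the mouse build GRCm38.p6, each with 250 bases before and 50 after an annotated start. It was the single motif searched. Of the 35 listed genes, 29 had a window and 11 of these held the core (37.9%), against 1219 of 27025 genes with a window (4.51%). The list was given in part as genes of the ATF4 response, so these shares describe its make-up and are no test. The stretches below are shown because they carry the core in genes whose values are followed in the text. Capitals mark the core, and each stretch is written on the strand that reads TGATGNAA.
Asns, chr6:7693214-7693243, minus strand: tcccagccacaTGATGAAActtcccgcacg
Pycr1, chr11:120643833-120643862, minus strand: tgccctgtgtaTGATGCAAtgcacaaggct
Chac1, chr2:119351038-119351067, minus strand: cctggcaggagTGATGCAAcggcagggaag
Trib3, chr2:152344028-152344057, plus strand: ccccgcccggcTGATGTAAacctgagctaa
Vldlr, chr19:27216809-27216838, minus strand: gctaggagcgcTGATGCAActattgctgct
Tars, chr15:11399655-11399684, plus strand: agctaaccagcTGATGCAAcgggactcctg

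In Asns the core lay 23 bases upstream of the annotated start, in Pycr1 103, in Chac1 193, in Vldlr 200 and in Tars 15, counted from its base furthest upstream. In Trib3 it lay 15 bases after the start. Other members with the core included Got1, Gars, Yars and Iars. By role, 5 of 8 cytosolic tRNA synthetases with a window held it, 3 of 6 other amino acid enzymes and 3 of 8 transcription factors and stress targets, against 0 of 3 serine synthesis genes and 0 of 4 folate genes. A match describes letters and not a bound site. The letters were absent from the windows of Ddit3, Cebpg, Sars and Gpt2, which says only that the core is not in those 300 bases.

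Ly6a, the targeted gene, had intensities of 7646, 7362 and 2843 on shLuc replicates 1, 2 and 3 and of 285, 314 and 306 on shSca-1 replicates 1, 2 and 3. The groups were apart, and shSca-1 minus shLuc was -4.17 on the log2 scale (standard error, SE, 0.36), the direction in which all log2 fold changes here are given. The adjusted p, from limma, a linear model with shared variances fitted over all probe sets, was 0.051. Without shLuc replicate 3 the value was -4.64 (limma adjusted p = 5.2e-07). An exact two-sided permutation test of 3 arrays against 3 gave p = 0.1, the smallest it can give. The Ly6a probe set was named through the study's list of changed probe sets. That list was chosen on these arrays, so the p-values of Ly6a are a description and no separate evidence. The replicates' labels do not say whether they were separate cultures, and if they were not, the p-values measure technical spread. Array medians lay between 37.3 and 40.6. shLuc replicate 3 stood apart from the rest. The summed intensity of 9 luminal mammary markers was 17260 on it and 448 to 520 on the others, with 7 of the 9 genes at 4 or more times their level on every other array. That of 6 basal markers was 18105 on it and 29127 to 33285 on the others. For that reason the log2 fold changes and counts are given with all 6 arrays and again without shLuc replicate 3.

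Among the 34 measured genes, the clearest difference between the groups was a lower level of Ddit3 and Cebpg in shSca-1 cells. Ddit3 encodes CHOP, the stress factor that acts after ATF4 when stress persists, and Cebpg encodes a C/EBP protein that pairs with ATF4. These 2 genes passed an unadjusted limma p under 0.01 with a fold change over 1.5, the thresholds that the study used, and 0 genes of the set passed upward. Over all 18193 genes, 1.52% passed downward and 0.528% upward. Of the 6320 genes with a mean log2 intensity of at least 8, 137 passed downward and 36 upward. Of the 34 members, 33 reached that level. In bulk RNA of this kind, fewer cells that express a gene and less RNA per cell cannot be told apart. After adjustment over all 45037 probe sets, 0 members had a limma p under 0.05, as did 0% of all genes. The methods' t-test also gave 0 members, and 1 higher and 3 lower among all probe sets. Before adjustment 8 of the 34 had a limma p under 0.05, against 10.6% of all genes and 1104 of the 6320 genes at that intensity. The log2 fold changes ran from -1.29 to 0.39 with a median of -0.06, where the median over all genes was -0.04. Of them 21 were negative and 13 positive, which became 18 and 16 after quantile normalization and 17 and 17 after each array was centred on its median. The unadjusted p was under 0.05 for 2 serine synthesis genes, 0 folate genes, 1 other amino acid enzyme, 3 transcription factors and stress targets and 2 synthetases.

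Without shLuc replicate 3 the picture shifted downward. The median of the 34 log2 fold changes became -0.29, with 28 negative and 6 positive, and the median over all genes stayed at -0.04. Now 6 members passed the study's thresholds downward and 0 upward, against 2.91% and 1.08% of all genes. These were Ddit3, Cebpg, Aldh1l2, Gpt2, Trib3 and Sars. At an adjusted p under 0.05 the fit without this array gave 5 lower members, against 2.73% of all genes. They were Ddit3, Cebpg, Aldh1l2, Sars and Eprs, and 0 members were higher, against 1.17%. Of the 6320 genes with a mean log2 intensity of at least 8, 268 then passed the study's thresholds downward and 74 upward. At an adjusted p under 0.05, 375 of these genes were lower and 170 higher. Leaving out shSca-1 replicate 3 instead gave 5 lower members at the study's thresholds, Ddit3, Cebpg, Gpt2, Trib3 and Sars, against 1.66% of all genes, and 0 upward, against 0.39%. Leaving out any of the other 4 arrays left the count at 2. The median of the members lay at -0.19 without shSca-1 replicate 3 and reached 0.05 without shLuc replicate 1.

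**Figure D1:**
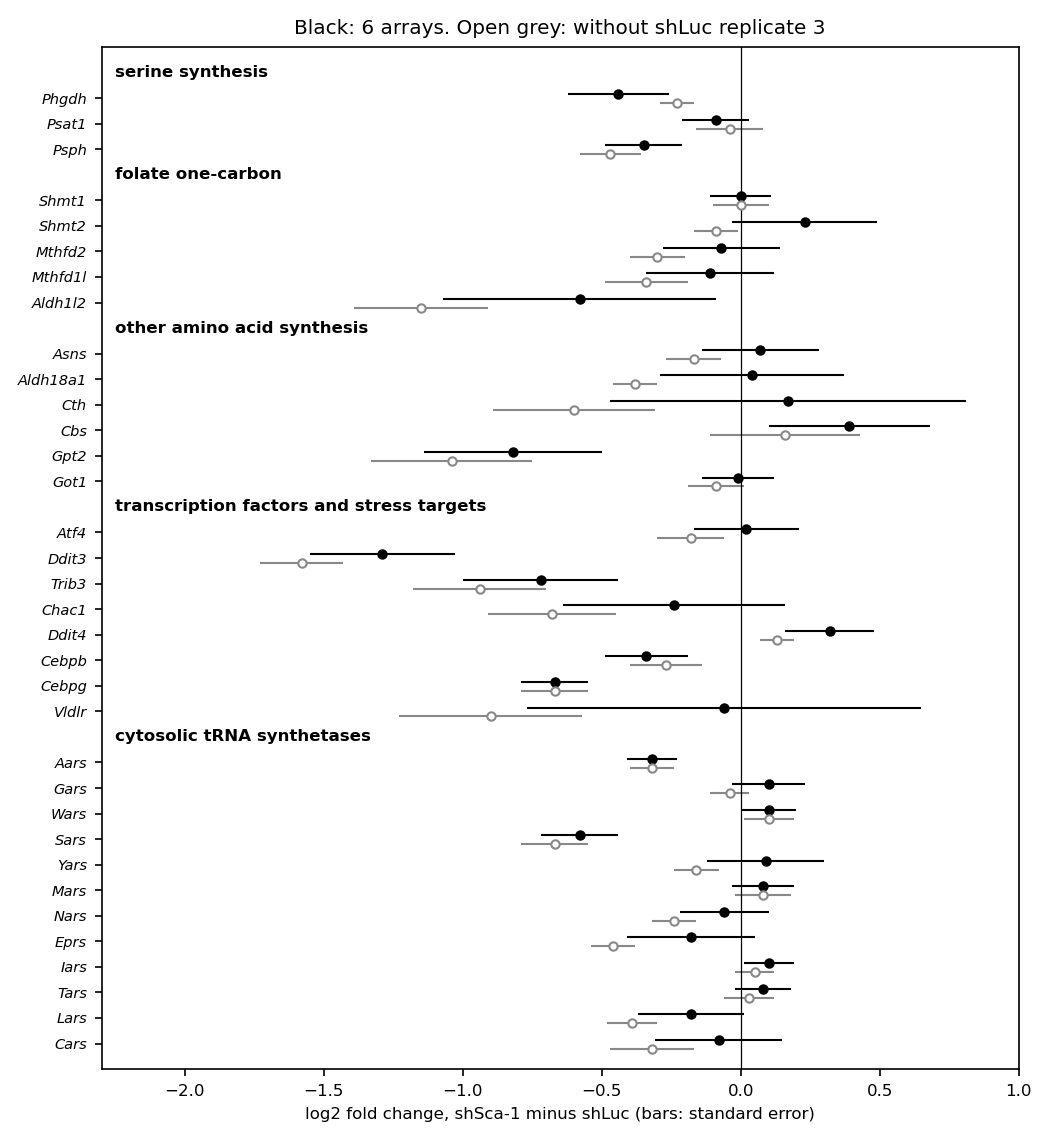
Log2 fold changes of shSca-1 against shLuc for the 34 measured genes, grouped by role, with standard errors from limma as bars. Black points use all 6 arrays and open points leave out shLuc replicate 3: Ddit3 lies furthest left in both, at -1.29 and -1.58, while Vldlr moves from -0.06 to -0.90.

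Ddit3 had intensities of 703, 740 and 400 on shLuc replicates 1, 2 and 3. In shSca-1 cells the values were 199, 246 and 288. Every shSca-1 array was below every shLuc array, and the means were 614 ± 187 and 244 ± 44.5 (SD, n = 3 each). The log2 fold change was -1.29 (SE 0.26, limma adjusted p = 0.22), and -1.58 without shLuc replicate 3 (adjusted p = 0.0051). Cebpg gave 931, 943 and 945 on the shLuc arrays and 521, 570 and 687 on the shSca-1 arrays. This gene hardly varied among the controls, with 940 ± 7.57 against 593 ± 85.0 (SD, n = 3 each), so that its log2 fold change was -0.67 with or without shLuc replicate 3 (limma adjusted p = 0.18 and 0.031). Groups that did not overlap were seen for 5 members with lower values in shSca-1, namely Ddit3, Cebpg, Phgdh, Aars and Sars, where 11.5% of all genes did so. In the other direction there was 1, Ddit4, where 7.18% of all genes did so. Among the 6320 genes with a mean log2 intensity of at least 8, 1053 were apart downward and 653 upward. The downward count of members was thus near the share of other genes.

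Atf4 itself had 4690, 4756 and 3148 on the shLuc arrays and 3639, 4023 and 4963 on the shSca-1 arrays. The groups overlapped widely, and the fold change of Atf4 mRNA was 0.02 on the log2 scale (SE 0.19). shLuc replicate 3 was the lowest and shSca-1 replicate 3 the highest of all arrays, and without the former the value was -0.18 (SE 0.12, limma adjusted p = 0.54). Trib3, a pseudokinase that ATF4 and CHOP induce and that feeds back on both, had 2288, 2126 and 1407 in shLuc cells and 902, 990 and 1708 in shSca-1 cells. On replicates 1 and 2 the shSca-1 values lay well under the controls, but replicates 3 crossed over. The log2 fold change was -0.72 (SE 0.28, limma adjusted p = 0.51) and -0.94 without shLuc replicate 3 (adjusted p = 0.095). Chac1, which encodes an enzyme that degrades glutathione, showed the same order, with 1965, 1994 and 799 against 955, 1108 and 1788. Its log2 fold change was -0.24 (SE 0.40) and -0.68 (SE 0.23, limma adjusted p = 0.19) without shLuc replicate 3.

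Vldlr, a lipoprotein receptor gene induced by ATF4, varied most within the groups. It had 1553, 1519 and 269 on the shLuc arrays and 619, 627 and 1450 in shSca-1 cells. The log2 fold change of this gene was -0.06 with an SE of 0.71, so 6 arrays could not show a change of either sign, and it turned to 0.01 after quantile normalization or median centring. Without shLuc replicate 3 it was -0.90 (limma adjusted p = 0.23). Cebpb, another C/EBP partner of ATF4, had 2420, 2353 and 2766 against 1888, 1703 and 2411. Its groups overlapped on shSca-1 replicate 3, and its log2 fold change of -0.34 had an adjusted p of 0.54 (limma), with -0.27 without shLuc replicate 3 (adjusted p = 0.38). Ddit4, which encodes the mTORC1 inhibitor REDD1, was the member whose groups were apart upward, with 4355, 4232 and 2925 in shLuc cells and 4637, 4617 and 4849 in shSca-1 cells. Its log2 fold change was 0.32 (SE 0.16, limma adjusted p = 0.61) and fell to 0.13 without shLuc replicate 3. As a group, the 8 transcription factors and stress targets had a median log2 fold change of -0.29, and of -0.67 without shLuc replicate 3.

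**Figure D2:**
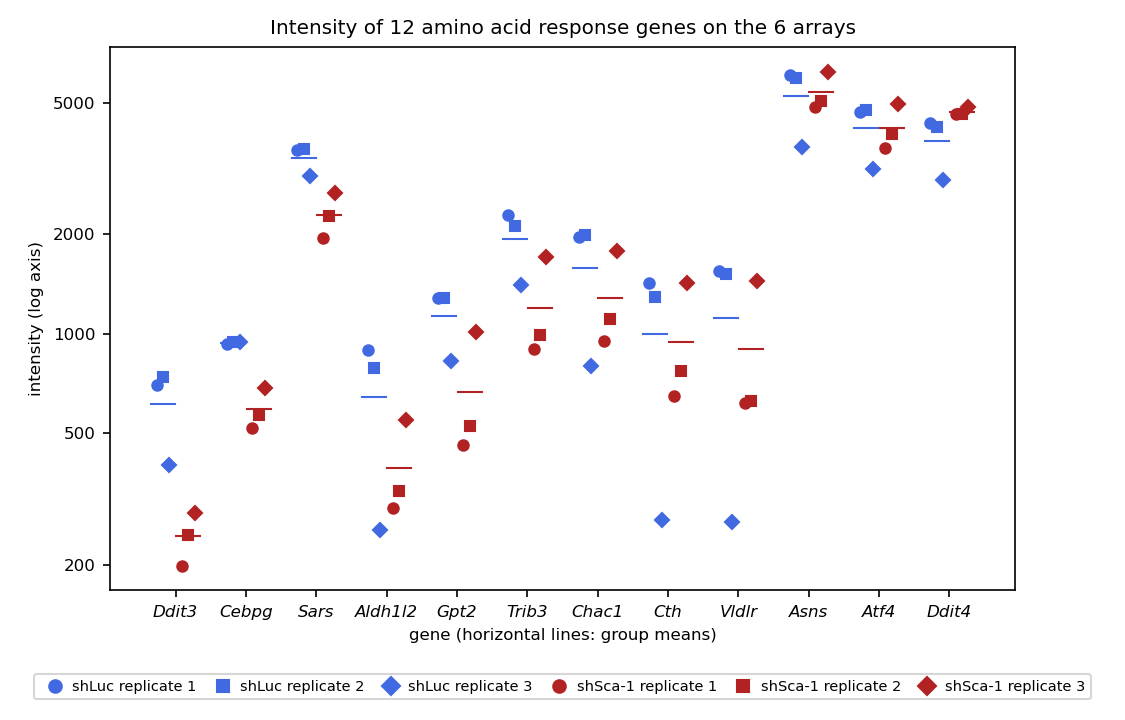
Intensity, on a log axis, of 12 members on each of the 6 arrays, with shLuc in blue, shSca-1 in red, a symbol shape for each replicate number and horizontal lines at the group means. Ddit3, Cebpg, Sars and Ddit4 have no overlap between groups, while for Cth and Vldlr shLuc replicate 3, at 273 and 269, lies below every other array.

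In the serine pathway all 3 log2 fold changes were negative and 0 passed the study's thresholds. Phgdh, the enzyme of the committed step, had 2803, 2933 and 4429 on the shLuc arrays and 2380, 2438 and 2495 on the shSca-1 arrays. The groups were apart, but the distance rested in part on shLuc replicate 3, which was high for this gene. The log2 fold change was -0.44 (SE 0.18, limma adjusted p = 0.51) and shrank to -0.23 (SE 0.06, adjusted p = 0.11) without that array. Psat1, the aminotransferase of the pathway, had 3871, 3800 and 4237 against 3278, 3572 and 4393, with overlapping groups and a log2 fold change of -0.09 (SE 0.12), or -0.04 (SE 0.12) without that array. Psph, the phosphatase that releases serine, had 2848, 2833 and 2243 against 1836, 1962 and 2403. Its log2 fold change was -0.35 (SE 0.14, limma adjusted p = 0.53), and -0.47 without shLuc replicate 3 (adjusted p = 0.077).

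Of the 5 folate genes 0 passed on 6 arrays, and Aldh1l2 passed once shLuc replicate 3 was left out. Aldh1l2, a mitochondrial enzyme that oxidizes formyl-folate and makes NADPH, had 894, 789 and 255 on the shLuc arrays and 297, 334 and 549 on the shSca-1 arrays. shLuc replicate 3 was the lowest of all 6. The log2 fold change went from -0.58 (SE 0.49, limma adjusted p = 0.76) to -1.15 without that array (SE 0.24, adjusted p = 0.0498), which is only just under the threshold. Mthfd2, the mitochondrial methylene-folate enzyme, had 2382, 2259 and 1422 against 1763, 1758 and 2148. Mthfd1l, which releases formate from mitochondria, had 1506, 1495 and 928 against 1019, 1101 and 1496. In both, shLuc replicate 3 was lowest and shSca-1 replicate 3 highest within the group, and the log2 fold changes of -0.07 and -0.11 had SEs of 0.21 and 0.23. They were -0.30 and -0.34 without shLuc replicate 3 (limma adjusted p = 0.18 and 0.33).

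Shmt2, the mitochondrial serine hydroxymethyltransferase, had 2870, 2952 and 1496 on the shLuc arrays and 2547, 2768 and 2928 on the shSca-1 arrays. On 6 arrays its log2 fold change was 0.23 (SE 0.26), a sign that came from the low shLuc replicate 3, since it was -0.09 (SE 0.08) without it. Shmt1, the cytosolic enzyme, was level on its brightest probe set, with 412, 352 and 381 against 368, 388 and 383. There the log2 fold change was 0 to 2 decimals (SE 0.11), with or without shLuc replicate 3, and replicate 3 of neither group moved from the others. On its dimmer probe sets shLuc replicate 3 was the highest shLuc array, at 479, 207 and 217. Without that array they gave log2 fold changes of 0.18, 0.36 and 0.38 (limma adjusted p = 0.48, 0.17 and 0.27).

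Among the other amino acid enzymes 0 of 6 measured genes passed on 6 arrays, and Gpt2 passed the study's thresholds without shLuc replicate 3. Gpt2, a mitochondrial alanine aminotransferase, had 1288, 1287 and 828 in shLuc cells and 462, 527 and 1014 in shSca-1 cells. Only shSca-1 replicate 3 reached into the range of the controls. The log2 fold change was -0.82 (SE 0.32, limma adjusted p = 0.51) and -1.04 without shLuc replicate 3 (adjusted p = 0.12). Of its other probe sets, 1 gave -1.11 without that array (limma adjusted p = 0.043), and the rest had adjusted p of 0.12 and 0.19. Whether Gpt2 lay under 0.05 thus depended on the probe set. Cth, which makes cysteine from cystathionine, had 1430, 1290 and 273 against 648, 775 and 1422. That is a 0.17 log2 fold change with an SE of 0.64, and -0.60 without shLuc replicate 3.

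Asns, which makes asparagine and is the textbook reporter of the amino acid response, had 6061, 5960 and 3673 on the shLuc arrays and 4848, 5072 and 6212 on the shSca-1 arrays. The extremes of both groups were again replicates 3, and the log2 fold change of 0.07 (SE 0.21) became -0.17 without shLuc replicate 3. Aldh18a1, which makes the precursor of proline, had 2338, 2459 and 996 against 1726, 1844 and 1975. Its change of 0.04 on the log2 scale turned to -0.38 without shLuc replicate 3 (limma adjusted p = 0.051). Got1, a cytosolic aspartate aminotransferase, had 818, 790 and 678 against 678, 751 and 848, and its log2 fold change of -0.01 changed sign to 0.05 after quantile normalization and 0.06 after median centring, and was -0.09 without shLuc replicate 3. Cbs, which makes cystathionine, was between 21.2 and 44.1 on all arrays. It was the member with a mean log2 intensity under 8, and its log2 fold change of 0.39 (SE 0.29), or 0.16 (SE 0.27) without shLuc replicate 3, rests on dim signal.

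Of the 12 cytosolic tRNA synthetases 0 passed the study's thresholds on 6 arrays. Sars, the seryl-tRNA synthetase, came closest, with 3594, 3625 and 3002 on the shLuc arrays and 1946, 2269 and 2671 on the shSca-1 arrays. The groups were apart, and the log2 fold change was -0.58 (SE 0.14, limma adjusted p = 0.30), a fold of 1.49 where 1.5 was needed. Without shLuc replicate 3 it was -0.67 (adjusted p = 0.034). Aars, for alanine, also had groups apart, with 1810, 1865 and 1854 against 1375, 1451 and 1611 and a log2 fold change of -0.32 (limma adjusted p = 0.37), which was -0.32 without shLuc replicate 3 as well (adjusted p = 0.1). Eprs, the fused glutamyl-prolyl enzyme, had 2935, 3055 and 1651 against 2054, 2135 and 2336. Its log2 fold change was -0.18 on 6 arrays and -0.46 without shLuc replicate 3 (adjusted p = 0.024), a fold too small for the study's threshold.

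The other 9 synthetases had log2 fold changes between -0.18 for Lars and 0.10 for Gars, Wars and Iars, with SEs of 0.09 to 0.23. Lars (2092, 2091 and 1352 against 1483, 1534 and 1796), Cars (1390, 1355 and 840 against 936, 1031 and 1386) and Nars (4856, 4730 and 3335 against 3825, 3959 and 4445) had replicate 3 at the low end of shLuc and at the high end of shSca-1. Without shLuc replicate 3 their log2 fold changes were -0.39, -0.32 and -0.24, with adjusted p of 0.078, 0.36 and 0.18 from limma. Yars went from 0.09 to -0.16 and Gars from 0.10 to -0.04. Wars, Mars, Iars and Tars stayed between 0.03 and 0.10 under that choice. The median log2 fold change of the 12 enzymes was 0.01 on 6 arrays and -0.20 without shLuc replicate 3.

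Within the groups most members shared an order of the replicates. On shLuc replicate 3, 26 of the 34 genes (76.5%) had their lowest value of the 3 shLuc arrays, where 39.5% of all genes did. Among all genes with a mean log2 intensity of at least 8, a level that 33 of the 34 members reached, the share was 48.4%. On shSca-1 replicate 3, 31 of the 34 (91.2%) had their highest value of the 3 shSca-1 arrays, where 42.1% of all genes and 53.5% of those at that level did. Both held for 25 members (73.5%), against 18.9% and 29.1%. These are counts without a test, since the members are not independent of each other. Relative to the mean log2 of replicates 1 and 2, shLuc replicate 3 was at a median of -0.61, from -2.52 for Vldlr to 0.63 for Phgdh. Replicate 3 of shSca-1 was at a median of 0.30, from -0.10 for Wars to 1.22 for Vldlr, while the medians over all genes were 0.03 and 0.05. For 21 members shLuc replicate 3 was the lowest of all 6 arrays (61.8%), against 24.2% of all genes and 33.3% of those with a mean log2 intensity of at least 8.

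**Figure D3:**
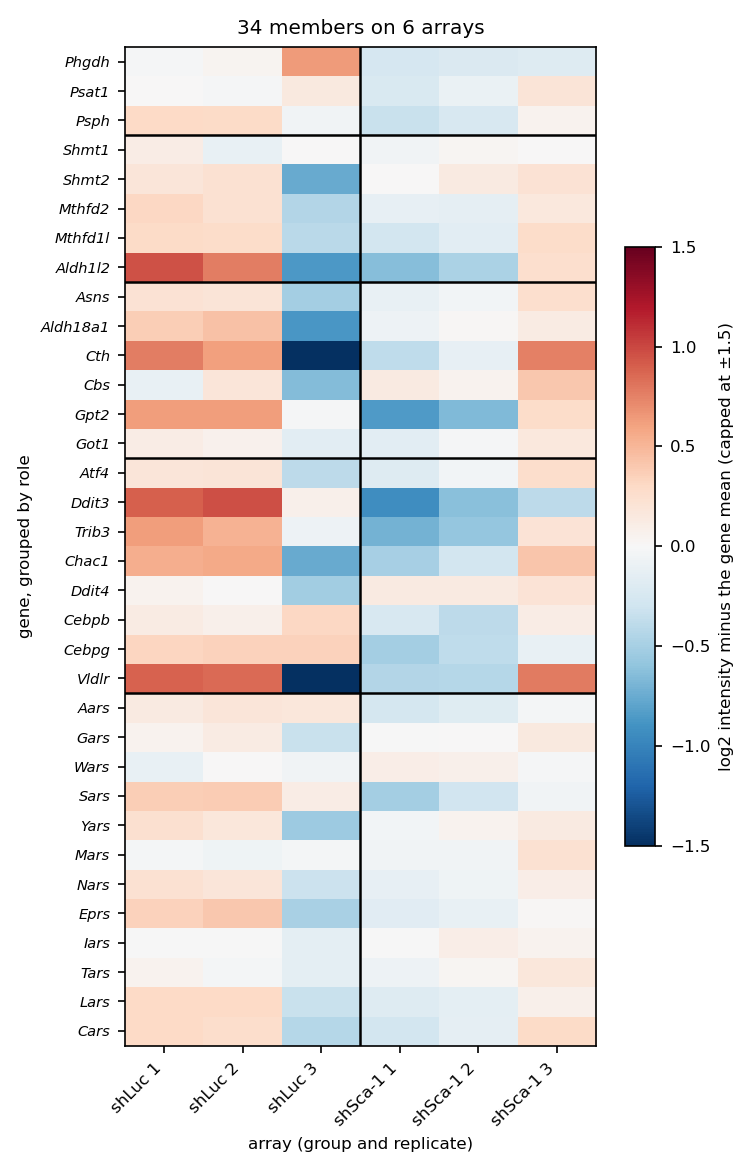
Log2 intensity of the 34 genes on the 6 arrays, each gene relative to its own mean and capped at 1.5 either way, with red above and blue below the mean; vertical and horizontal lines part the groups and the roles. The column of shLuc replicate 3 is blue for most genes and shSca-1 replicate 3 is mostly red. Phgdh, Cebpg, Cebpb, Aars and Psat1 are among the genes that are red on shLuc replicate 3, Phgdh the most.

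Among the members, all 6 other amino acid enzymes had both features. So did 6 of 8 transcription factors and stress targets, 4 of 5 folate genes and 8 of 12 synthetases. In the serine pathway only Psph had both on the probe sets used, and Phgdh and Psat1 were instead highest of the shLuc group on its replicate 3. This depended on the probe set. The other probe set of Psat1 had both features, with 3702, 3663 and 3581 against 3296, 3257 and 3726, as did 1 of the 4 of Phgdh. Of the 10 measured members with the motif core in their window, among them Asns, Chac1, Trib3, Vldlr and Tars from the sequences above, 8 had both features, and so did 12 of the 18 with a window that lacked it. Of the 9 measured markers of fibroblasts, endothelium, fat and blood cells 2 had both features (22.2%), near the share of all genes. Their summed intensity was 477, 444 and 287 on the shLuc arrays and 284, 281 and 623 on the shSca-1 arrays. Cd68, a macrophage and lysosome gene, followed the members' order at 311, 298 and 32.9 against 53.9, 77.6 and 212. Pdgfra, a fibroblast marker, was high on both replicates 3, at 60.8, 48.6 and 147 against 96.2, 108 and 292. The endothelial marker Pecam1 lay between 1 and 2.41, the leukocyte marker Ptprc between 3.98 and 20.5, and the T cell marker Cd3e between 1 and 4.73. Of the 6 basal markers 4 had both features (66.7%), among them the factor Trp63 with 2950, 2870 and 939 against 1531, 1464 and 2898. The exceptions were Acta2, a smooth muscle actin that was lowest on replicate 3 of each group (9056, 8603 and 4776 against 6193, 6090 and 4630), and Myh11, which was dim at 1 to 16.2. The luminal markers summed to 498 on shSca-1 replicate 3, within the range of the arrays other than shLuc replicate 3. The part of these markers in the members' values was not tested.

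**Figure D4:**
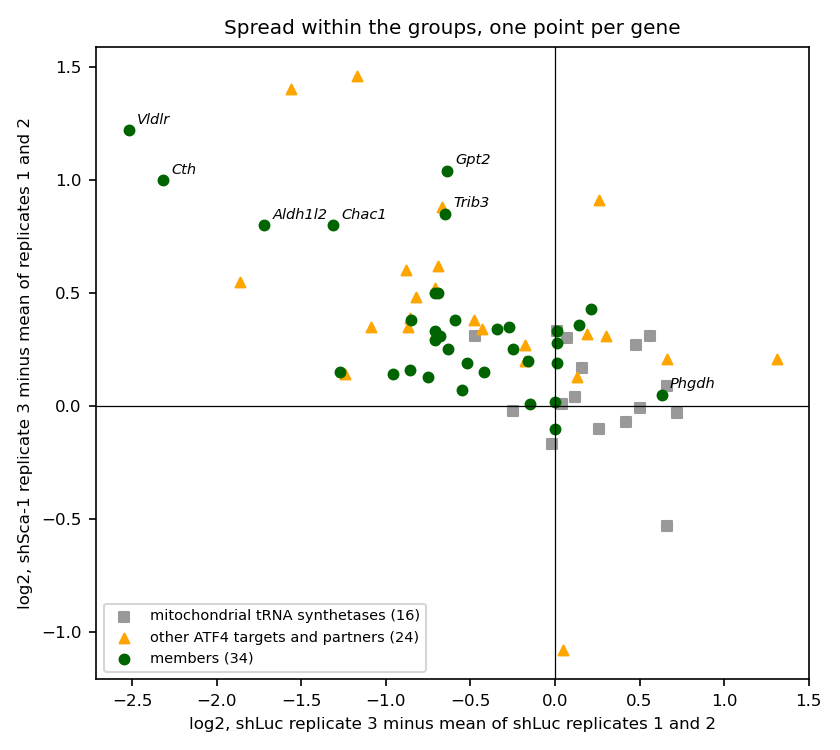
Each point is a gene, placed by how far shLuc replicate 3 lay from the mean of shLuc replicates 1 and 2 (x axis, log2) and how far shSca-1 replicate 3 lay from the mean of shSca-1 replicates 1 and 2 (y axis, log2). Members (circles) and other ATF4 targets (triangles) lie mostly up and to the left, as far as Vldlr at -2.52 and 1.22, while the mitochondrial tRNA synthetases (squares) have medians of 0.21 and 0.03.

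Of the 34 measured genes 22 had several probe sets, which gave repeated readings of the same RNA and not further replicates. Gpt2 had 4 probe sets with a median intensity of at least 100, and all 4 had shLuc replicate 3 lowest and shSca-1 replicate 3 highest within the group. Their log2 fold changes lay between -0.89 and -0.63. The 4 of Aldh18a1, 3 of Vldlr, 3 of Shmt2 and 3 of Eprs showed the same order. For Sars both probe sets gave lower values in shSca-1, at -0.58 and -0.50, as did both bright ones of Cebpg, at -0.67 and -0.48. The second probe set of Ddit3 was dim, between 2.83 and 18.6, and gave -0.05 with an SE of 0.77, so the Ddit3 result rests on 1 probe set.

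For Phgdh the probe sets disagreed on shLuc replicate 3. The probe set used above had 4429 there, and 2 others, at 2434 and 1775, were also above their other shLuc values. By contrast the remaining probe set had 3110 and 3440 on shLuc replicates 1 and 2 and 26.7 on shLuc replicate 3, with 2591, 2823 and 2883 on the shSca-1 arrays. This single value turned its log2 fold change to 2.07 (SE 1.74), and without shLuc replicate 3 the 4 probe sets gave between -0.24 and -0.21. The direction of Phgdh on 6 arrays therefore depends on the probe set taken.

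**Figure D5:**
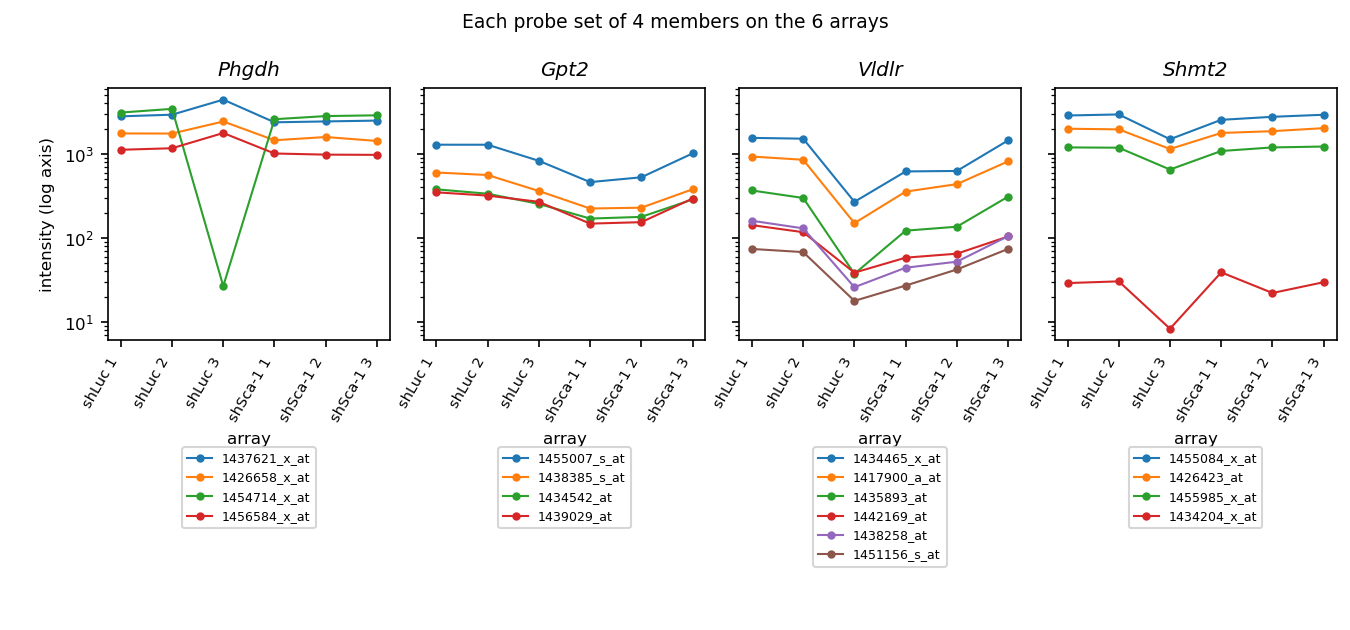
Intensity of every probe set of Phgdh, Gpt2, Vldlr and Shmt2 on the 6 arrays, on a shared log axis, with lines joining the values of a probe set. The probe sets of Gpt2 and Vldlr run in parallel, and 1 probe set of Phgdh drops to 26.7 on shLuc replicate 3 where the other 3 go up.

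The wider pathway was read from 6 further lists. Of 24 measured ATF4 targets and partners outside the members, 2 passed the study's thresholds downward and 0 upward. Without shLuc replicate 3 there were 3 downward, 2 of them also at an adjusted p under 0.05, and 0 upward. Atf5, a transcription factor related to ATF4 and translated by the same mechanism, had 1080, 1146 and 691 on the shLuc arrays and 296, 329 and 480 on the shSca-1 arrays. The groups were apart, with a log2 fold change of -1.40 (SE 0.25, limma adjusted p = 0.18), and -1.63 without shLuc replicate 3 (adjusted p = 0.0091). Klhl24, an adaptor of a ubiquitin ligase, had 372, 323 and 427 against 171, 174 and 214, with means of 374 ± 51.8 and 186 ± 23.8 (SD, n = 3 each, limma adjusted p = 0.13). Its log2 fold change was -1.0, and -0.90 without shLuc replicate 3 (limma adjusted p = 0.02). The third gene under that choice was Slc7a5, a subunit of a transporter of large neutral amino acids, with 1454, 1723 and 968 against 842, 870 and 1228 and log2 fold changes of -0.48 and -0.71 (limma adjusted p = 0.61 and 0.07). The list's median was -0.11, and -0.37 without that array, and 17 of the 24 genes had both shLuc replicate 3 lowest and shSca-1 replicate 3 highest in the group. The motif core was in 8 of its 20 genes with a promoter window (40%).

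Of 14 measured eIF2 kinases, eIF2 and eIF2B subunits and their regulators 0 passed on 6 arrays. Without shLuc replicate 3, 2 passed downward, at the study's thresholds and at an adjusted p under 0.05 alike, against 2.91% and 2.73% of all genes. The smallest p was that of Ppp1r15a, the CHOP-induced phosphatase subunit GADD34 that removes phosphate from eIF2, with 370, 392 and 233 against 191, 198 and 231. Replicates 3 of both groups nearly met, and the log2 fold change was -0.65 (limma adjusted p = 0.44), and -0.89 without shLuc replicate 3 (adjusted p = 0.013). The other was Impact, which encodes an inhibitor of the eIF2 kinase GCN2, with 395, 357 and 215 against 213, 233 and 214. On the log2 scale the fold change went from -0.51 (limma adjusted p = 0.58) to -0.77 (adjusted p = 0.015). In 13 other folate and glycine cleavage enzymes 0 passed with or without that array. Mthfd1, the cytosolic enzyme of the folate cycle, had the smallest p on 6 arrays with 666, 679 and 760 against 835, 913 and 835. Its log2 fold change was 0.30 (limma adjusted p = 0.45), and 0.36 without shLuc replicate 3 (adjusted p = 0.065). The order described for the members was seen in 4 of the 14 eIF2 genes, and 0 of the 13 folate genes had shLuc replicate 3 lowest and shSca-1 replicate 3 highest.

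In 13 amino acid enzymes outside the members 0 passed on 6 arrays. The smallest p was that of Bcat2, a branched-chain aminotransferase, at -0.56 (limma adjusted p = 0.53, with the groups apart) and -0.40 without shLuc replicate 3. Without that array 1 of the 13 passed both thresholds downward, against 2.91% of all genes at the study's thresholds and 2.73% at the adjusted p. This was Glul, glutamine synthetase, with 430, 435 and 243 against 279, 307 and 225 and a log2 fold change that went from -0.41 (limma adjusted p = 0.68) to -0.69 (adjusted p = 0.047). In this list 3 of the 13 had the members' order of both replicates 3. In 10 other cytosolic tRNA synthetases and their scaffold proteins 0 passed with or without shLuc replicate 3, and the smallest p was that of Aimp1, a scaffold of the synthetase complex, at -0.20 (limma adjusted p = 0.54), or -0.23 without that array. Of the 10 genes, 4 had that order of both replicates 3. In 16 mitochondrial tRNA synthetases, which charge tRNAs inside mitochondria, 0 passed under either choice and Hars2 had the smallest p on 6 arrays, at -0.39 (limma adjusted p = 0.53), or -0.25 without shLuc replicate 3. Only 1 of the 16 had that order, and for 2 of them shLuc replicate 3 was the lowest of its group. None of the genes of these 5 lists held the motif core in a promoter window, out of 12, 13, 11, 8 and 14 genes with a window in the order given. At an unadjusted limma p under 0.05 on 6 arrays the same lists held 1, 1, 1, 0 and 1 genes. The list of other ATF4 targets and partners held 3 of 24, and the share of all genes was 10.6%.

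Pycr1, which makes the last step of proline synthesis, is in the gene set but has no probe set in the array annotation. The study's own list of changed probe sets names a probe set as Pycr1, and since that list was chosen on these arrays its values are a description and no evidence of direction. They were 401, 373 and 479 on the shLuc arrays and 203, 279 and 222 on the shSca-1 arrays. Every shSca-1 value was under every shLuc value, with means of 418 ± 54.9 and 234 ± 39.8 (SD, n = 3 each), and replicates 3 did not follow the order seen in most members.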

How the data were processed

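Total RNA of Wnt1-YL cells was hybridized to 6 Affymetrix mouse arrays, 3 of shLuc and 3 of shSca-1 cells, grouped by the titles. In dChip, with its PM-MM model, the authors made the deposited intensities and normalized them on an invariant set. The dChip version and the genome build of the probe annotation are not given in the sources used here. The methods name the MG 430 2.0 chip, and the table holds 45101 probe sets. Subtraction of mismatch probes makes low intensities noisy. Precision is limited by the number of arrays, 3 a group.

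The log2 of each intensity was used, with 1 as the floor. After 64 control probe sets were left out, 45037 were fitted in R 4.3.3 by limma 3.58.1, without covariates (lmFit, then eBayes allowing a variance trend). The Benjamini-Hochberg adjustment ran over all 45037. The scripts were tested on simulated data. Of the probe sets, 34945 had 1 gene symbol, 932 several and 9160 none. The 34 measured members matched the RefSeq gene table by Entrez identifier, with current names for the synthetases (Aars1 for Aars). Calls used the study's thresholds (unadjusted p under 0.01, fold over 1.5) or an adjusted p under 0.05. Ly6a and Pycr1 were named through the study's list of changed probe sets, whose fold changes and p-values were not used. The members and lists were chosen with earlier results of these data known. Named genes were Ly6a, all members, marker genes, and of each other list those past the study's thresholds or else the gene with the smallest p. Not every stretch with the motif core is reported here. The alternatives were quantile normalization, median centring, floors of 16 and 64, dropping probe sets under the 40 percentile of mean log2, no trend, the methods' t-test, the mean of all probe sets, a block for the replicate number and each array left out in turn.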

Additional observations from a re-analysis of the deposited data

How the results depend on the processing

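The lower level of Ly6a kept its direction and its side of the study's thresholds under every alternative, from -4.64 to -3.92. The count of members lower at the study's thresholds, 2 on 6 arrays, was 1 with intensities under 64 set to 64 and 1 with the methods' t-test, where Ddit3 missed the p threshold, with Cebpg still past it, and 0 with the mean of all probe sets. Leaving out arrays gave 2 to 6 lower members and 0 to 5 at an adjusted p under 0.05. No other alternative moved either count, and the count of higher members stayed at 0. Over all probe sets the study's thresholds gave 225 higher and 599 lower, 327 and 481 after quantile normalization and 312 and 489 after median centring, which moved the median of all probe sets from -0.034 to 0.023 and 0.030. The median of the members was then -0.02 and -0.00.

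Across all probe sets, deviations of arrays with the same number from their group means had correlations of -0.04, -0.02 and -0.03. The labels do not say whether such arrays shared a culture or a batch, and these values cannot settle it. With a replicate block, 2 members were lower and 0 had an adjusted p under 0.05, and over all probe sets the block gave 153 higher and 434 lower.

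Phgdh, at -0.44 from its brightest probe set, was 0.20 with the mean of all probe sets. Members nearer 0 changed sign as well. With that mean Atf4 was -0.04 and Cars 0.06. After quantile normalization Got1 was 0.05 and Vldlr 0.01, and after centring they were 0.06 and 0.01. Leaving out arrays in turn gave log2 fold changes of -0.09 to 0.40 for Shmt2, -0.30 to 0.07 for Mthfd2, -0.34 to 0.01 for Mthfd1l, -0.17 to 0.19 for Asns, -0.38 to 0.27 for Aldh18a1, -0.60 to 0.59 for Cth, -0.09 to 0.07 for Got1, -0.18 to 0.12 for Atf4 and -0.90 to 0.37 for Vldlr. Among the synthetases it gave -0.04 to 0.19 for Gars, -0.16 to 0.23 for Yars, -0.01 to 0.13 for Mars, -0.24 to 0.03 for Nars and -0.32 to 0.05 for Cars. The lowest value came without shLuc replicate 3 for each of these but Mars, for which it came without shSca-1 replicate 3. The cause was not tested. Of the members' fold changes under all alternatives, 464 kept direction and side of the thresholds, 35 changed sign, 7 passed newly and 4 no longer passed.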
